A study of Mus musculus with 8 samples.

Results

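The miR-29 family was followed in mouse kidney through 6 of its mature arms: mmu-miR-29a-3p, mmu-miR-29b-3p and mmu-miR-29c-3p, and the opposite arms mmu-miR-29a-5p, mmu-miR-29b-1-5p and mmu-miR-29c-5p (the species prefix mmu is left out from here on). They were taken by name from the non-control spots and are 6 of the 1881 mouse miRNAs on the array, measured by 16 of its 4415 probes. The kidneys came from a model of septic acute kidney injury. Lipopolysaccharide (LPS, an outer membrane component of Gram-negative bacteria) was given intraperitoneally at 10 µg for each gram of body weight, and sham mice received saline. Kidneys were taken 24 h later. From 30 mg of each, total RNA was purified, of which 100 ng was labelled with the dye Cy3 and hybridised to a 1-colour array. There were 4 LPS arrays (replicates 6, 10, 11 and 12) and 4 sham arrays (replicates 5, 6, 7 and 8, called Mock in the titles). Strain, sex and age are not given in the sources used here, and the labels do not state that each sample came from its own mouse. The p-values therefore measure the spread between these samples, which may be technical.

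A miRNA hairpin is cut into a 5p and a 3p arm, and the arm that stays in the Argonaute protein, the guide, pairs with messenger RNAs through its seed, bases 2 to 8. In the miR-29 family the 3p arms are the guides and the 5p arms are the passenger arms. The guides are known as repressors of collagens, elastin and other extracellular matrix genes, and they are described as anti-fibrotic in kidney, heart and other organs.

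All 6 arms had an entry among the mature miRNA sequences of RefSeq (build GRCm38.p6). The guides are shown first because they carry 1 seed, in capitals, and differ only after it:
miR-29a-3p: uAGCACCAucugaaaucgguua
miR-29b-3p: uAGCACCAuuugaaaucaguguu
miR-29c-3p: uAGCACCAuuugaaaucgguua
This seed was held by 3 of the 1679 mature miRNA names in that table, which are these 3 guides. Counting from the 5′ end, miR-29a-3p differs from miR-29c-3p by C10U alone, and from miR-29b-3p by C10U, G18A, U21G and A22U. miR-29b-3p differs from miR-29c-3p by A18G, G21U and U22A and is 1 base longer, at 23 bases.

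The passenger arms, with the same positions in capitals, hold a different 7-base stretch in each arm, and no other mature name in the table shares any of them:
miR-29a-5p: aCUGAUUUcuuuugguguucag
miR-29b-1-5p: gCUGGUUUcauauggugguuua
miR-29c-5p: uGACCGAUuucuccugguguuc
The family also has miR-29b-2-5p, the passenger arm of the second miR-29b hairpin. Its 2 probes were below background on all 8 arrays, so it is listed at the floor and gave no comparison.

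The array files place the arms, on build mm9, in 2 clusters of miRNA genes. On the minus strand of chromosome 6 the probes map to chr6:31012716-31012734 for miR-29a-3p, chr6:31012676-31012696 for miR-29a-5p, chr6:31013071-31013091 for miR-29b-3p and chr6:31013028-31013049 for miR-29b-1-5p, within 416 bases. On the plus strand of chromosome 1 they map to chr1:196863287-196863307 for miR-29b-3p, chr1:196863795-196863815 for miR-29c-3p and chr1:196863758-196863777 for miR-29c-5p, and with miR-29b-2-5p span 564 bases. In RefSeq's gene table of GRCm38.p6 both hairpins on chromosome 1 overlap the long non-coding RNA gene A330023F24Rik. A mature miR-29b-3p molecule is the same from either cluster, so its signal cannot be divided between them, whereas miR-29b-1-5p comes only from the hairpin of Mir29b-1 on chromosome 6. That hairpin is shown with its arms in capitals, the 5p arm first, because both arms are followed below:
Mir29b-1: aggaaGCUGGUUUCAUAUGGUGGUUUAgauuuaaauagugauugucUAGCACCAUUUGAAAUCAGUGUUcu

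Signals are given as log2 relative signal, that is, the background-subtracted intensity summed over the probes of an arm, divided by the 75th percentile of the array. An arm counted as detected on an array where at least 1 of its probes had over 50% of its spots well above background, and it was tested where all arrays of at least 1 group detected it. Of 1881 miRNAs, 336 to 375 were detected per array and 338 were tested. Between 15.8% and 17.5% of the non-control spots of an array were well above background, and the number of arrays limits the precision. All 8 arrays were on 1 slide and 1 scan, with row 1 holding the sham and row 2 the LPS arrays, so that row and treatment cannot be told apart. Of the tubule markers fixed for the tissue, 5 of 6 were detected on every array of both groups, while miR-215-5p was not detected on any array. The liver marker miR-122-5p was not detected on any array.

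Part of the miR-29 family was higher after LPS. Of the 6 arms, all tested, 4 were called higher and 0 lower in LPS kidneys (limma, Benjamini-Hochberg adjusted p under 0.05 over the 338 miRNAs). Over all tested miRNAs, 40.2% were called, 14.8% higher and 25.4% lower. The called arms were the guides miR-29a-3p and miR-29b-3p and the passenger arms miR-29a-5p and miR-29b-1-5p. Both arms of miR-29c were not called in either direction. With slide column as a block (each column holds 1 sham and 1 LPS array), the guides miR-29a-3p and miR-29b-3p were no longer called (adjusted p = 0.0636 and 0.0619) and both passenger arms were. The passenger arms miR-29a-5p and miR-29b-1-5p entered the test only because every LPS array detected them, so their calls add no independent support. Of the 4 arms detected on all 8 arrays, 2 were called higher, in a fit of the 306 miRNAs so detected, of which 13.1% were called higher and 25.5% lower. The median difference of these 4 was 0.17 log2 units against -0.09 over the 306 miRNAs. Over all 6 arms it was 0.24 against -0.08 over all 338. Setting miR-29b-1-5p to its lower bound cannot change this median, since the arm stays the highest of the 6. Every LPS array lay above every sham array in 4 of the 6 arms, the same 4 that were called. That separation largely goes with the call and is no second result. Over all tested miRNAs, 12.1% held the pattern, while 24.9% had every LPS array below every sham array. Both the count of 4 of 6 and the median over 6 arms include the 2 passenger arms tested only through the LPS arrays. Their part in them is no independent support. In bulk kidney RNA, a change in the share of cells that carry a miRNA and a change in its amount per cell cannot be told apart.

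**Figure D1:**
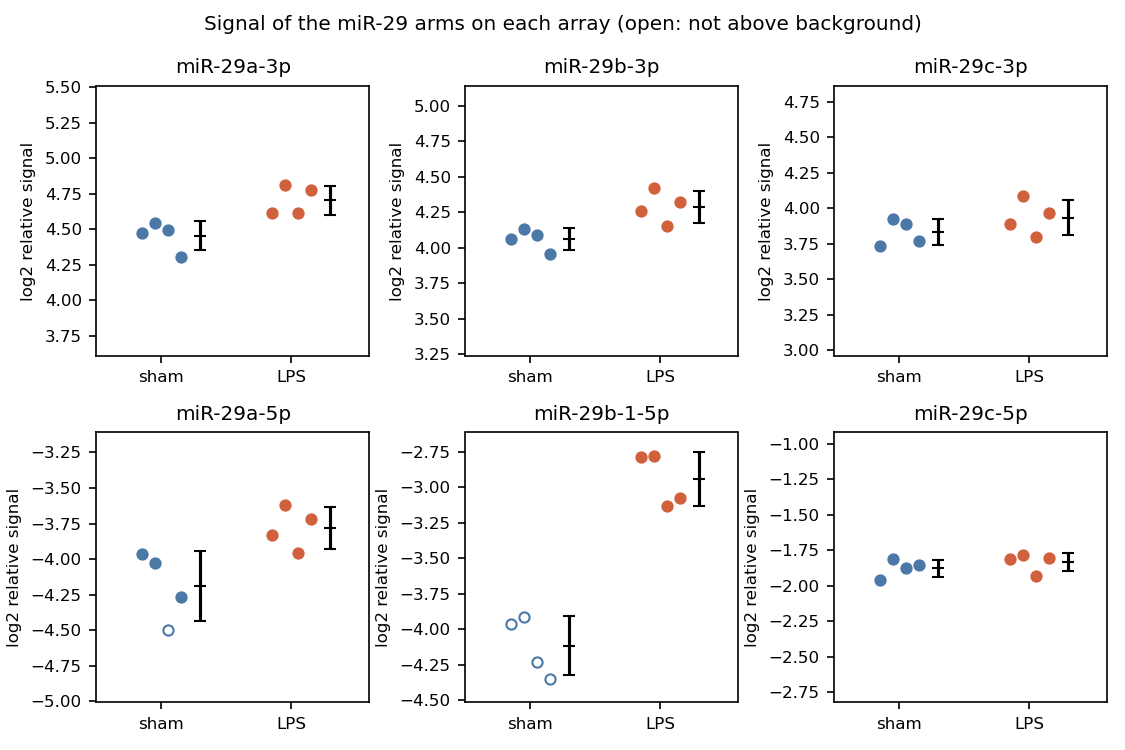
The log2 relative signal of each arm is plotted for 4 sham and 4 LPS arrays, with the mean and SD as bars and each panel spanning the same height in log2 units. Open points mark arrays on which the arm was not detected. The groups do not overlap for miR-29a-3p, miR-29b-3p, miR-29a-5p and miR-29b-1-5p, and overlap for both arms of miR-29c.

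Among the guides, miR-29a-3p had log2 relative signals of 4.47, 4.55, 4.49 and 4.31 in sham replicates 5, 6, 7 and 8. In LPS replicates 6, 10, 11 and 12 they were 4.62, 4.81, 4.62 and 4.78. The groups did not overlap, sham replicate 8 was the lowest array and LPS replicate 10 the highest. The means were 4.46 ± 0.10 and 4.71 ± 0.10 (SD, n = 4 per group), a difference of 0.25 ± 0.07 log2 units (SE, adjusted p = 0.0308), or 1.19-fold with a 95% interval of 1.06 to 1.34. The call was lost without sham replicate 7 (adjusted p = 0.0598), sham replicate 8 (0.0804), LPS replicate 10 (0.0506) or LPS replicate 12 (0.0813), with differences of 0.20 to 0.28 over all single arrays left out.

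The guide miR-29b-3p, made from both clusters, had values of 4.06, 4.13, 4.09 and 3.96 on the sham arrays in the same order. On the LPS arrays they were 4.26, 4.42, 4.15 and 4.32. Again no LPS array fell to the sham range, and the lowest LPS array, replicate 11, lay just above the highest sham array, replicate 6. The means were 4.06 ± 0.07 and 4.29 ± 0.11 (SD, n = 4 per group), and the difference was 0.23 ± 0.07 (SE, adjusted p = 0.0344), or 1.17-fold (95% interval 1.05 to 1.31). This call was lost without any single array other than LPS replicate 11, with differences of 0.18 to 0.27 and adjusted p from 0.0276 to 0.0943.

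The remaining guide, miR-29c-3p, comes only from chromosome 1. Its values were 3.74, 3.92, 3.89 and 3.77 in sham and 3.89, 4.08, 3.80 and 3.96 in LPS. The groups overlapped, with LPS replicate 11 inside the sham range. The means of 3.83 ± 0.09 and 3.93 ± 0.12 (SD, n = 4 per group) differed by 0.10 ± 0.08 log2 units (SE, adjusted p = 0.302). The 95% interval of -0.07 to 0.28 includes no difference and also the differences of the other guides.

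The passenger arm miR-29b-1-5p was above background only after LPS. Its summed signal was -3.96, -3.91, -4.23 and -4.35 on the sham arrays and -2.79, -2.78, -3.13 and -3.08 on the LPS arrays. The groups did not overlap, and the arm was detected on 0 of 4 sham and 4 of 4 LPS arrays. The measured means were -4.11 ± 0.21 and -2.94 ± 0.19 (SD, n = 4 per group), with an adjusted p of 3.03e-04 in the fit. The arm was tested only because the LPS arrays detected it, and its sham level lies below background, so that p is no independent support. The size is given as a bound on the group means of its brightest probe: at least 2.06-fold higher in LPS. It leaves out the spread between arrays and holds for the main processing only. That bound compares the mean of the LPS arrays, -3.67, with the higher of the probe's own signal and the lowest signal above background on each sham array, -4.71, where the measured sham mean was -4.77.

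The brightest probe shows how faint this signal is. It is the complement of all 22 bases of the arm, and the 21-base probe stops 1 base short of the 5′ end, with the bases facing the seed in capitals:
22-base probe: taaaccaccatatgAAACCAGc
21-base probe: taaaccaccatatgAAACCAG
The 22-base probe had mean intensities of 17.0, 20.02, 15.6 and 13.9 scanner units on the sham arrays and 42.9, 49.2, 37.8 and 33.8 on the LPS arrays. Of its 7 spots, 1, 3, 2 and 0 were well above background on the sham arrays, and 7 were on each LPS array. The 21-base probe read 10.4, 9.52, 12.2 and 8.93 in sham and 22.5, 23.6, 20.7 and 20.04 in LPS, again without overlap, and in sham all 4 of its arrays were at the floor of the log2 scale. The 19-base and 20-base probes of the arm were not detected on any array.

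The passenger arm miR-29a-5p had summed signals of -3.96, -4.03, -4.50 and -4.27 in sham and -3.83, -3.62, -3.96 and -3.72 in LPS. The highest sham array and the lowest LPS array both round to -3.96, so the groups are separate but nearly touch. It was detected on 3 of 4 sham arrays, the exception being replicate 7, and on all 4 LPS arrays. The means of -4.19 ± 0.24 and -3.78 ± 0.15 (SD, n = 4 per group) differed by 0.41 ± 0.13 (SE, adjusted p = 0.0351), or 1.33-fold (95% interval 1.08 to 1.63).

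That call rested in part on probes below background. Of its 4 probes, 3 were not detected on any array, and they held 46.0% of the difference between the group means of the linear sum. The only detected probe, of 22 bases, read 26.3, 24.0, 18.6 and 21.6 scanner units in sham and 24.0, 33.8, 28.1 and 29.7 in LPS. These overlapped, since LPS replicate 6 lay within the sham range, and the probe's log2 difference of 0.28 ± 0.14 (SE) was not called (adjusted p = 0.158). For miR-29b-1-5p the undetected probes held 9.13% of the difference. Without sham replicate 7, sham replicate 8, LPS replicate 6, LPS replicate 10 or LPS replicate 12 the miR-29a-5p sum was not called (adjusted p = 0.0680, 0.0875, 0.0573, 0.0734 and 0.0837), with differences of 0.30 to 0.48 over all 8 arrays left out in turn.

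The passenger arm miR-29c-5p was detected on all arrays. Its values were -1.96, -1.81, -1.88 and -1.86 in sham and -1.81, -1.78, -1.93 and -1.81 in LPS, and the ranges overlapped nearly throughout. The means of -1.87 ± 0.06 and -1.83 ± 0.07 (SD, n = 4 per group) differed by 0.04 ± 0.06 (SE, adjusted p = 0.578), with a 95% interval of -0.09 to 0.17.

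Each arm was read by 2 to 4 probes of different length, all exact complements of the RefSeq sequence. Of the 16 probes, 11 were tested and 5 were called higher in LPS, with 0 lower, where 14.2% of all 633 tested probes were called higher and 38.9% either way. All 11 differences were positive. The groups were separate with LPS higher for 5 of the 11, the same 5 that were called, and for 12.6% of all tested probes. That separation largely goes with the call and is no second result. Both counts of 5 include 2 probes of miR-29b-1-5p tested only through the LPS arrays. The 19-base and 20-base probes of miR-29a-3p differed by 0.30 (adjusted p = 0.0169) and 0.23 (0.0411), and the 20-base and 21-base probes of miR-29b-3p both by 0.23 (0.0536 and 0.0313). For miR-29c-3p the 21-base and 22-base probes differed by 0.09 (0.3998) and 0.12 (0.239), and for miR-29c-5p the 20-base and 21-base probes by 0.02 (0.824) and 0.06 (0.454). Within each of these 4 arms the probes gave nearly the same difference, at most 0.07 log2 units apart. The probes of miR-29b-1-5p gave 1.10 ± 0.11 for 22 bases (adjusted p = 1.93e-04) and 0.27 ± 0.06 for 21 bases (0.00615), both SE. Neither was detected on any sham array, so both were tested only through the LPS arrays and these values are no measured sizes.

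Single arrays decided some of these probe calls. The 20-base probe of miR-29a-3p was called only with all arrays or without LPS replicate 6 (adjusted p up to 0.105 otherwise), and the 19-base probe was lost without LPS replicate 12 (adjusted p = 0.0504). The 21-base probe of miR-29b-3p was lost without sham replicates 5, 7 or 8 or LPS replicates 6 or 12 (adjusted p up to 0.0890), and the 20-base probe was gained without LPS replicate 11 (0.0257). The calls of both miR-29b-1-5p probes, tested only through the LPS arrays, were kept without each array in turn.

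**Figure D2:**
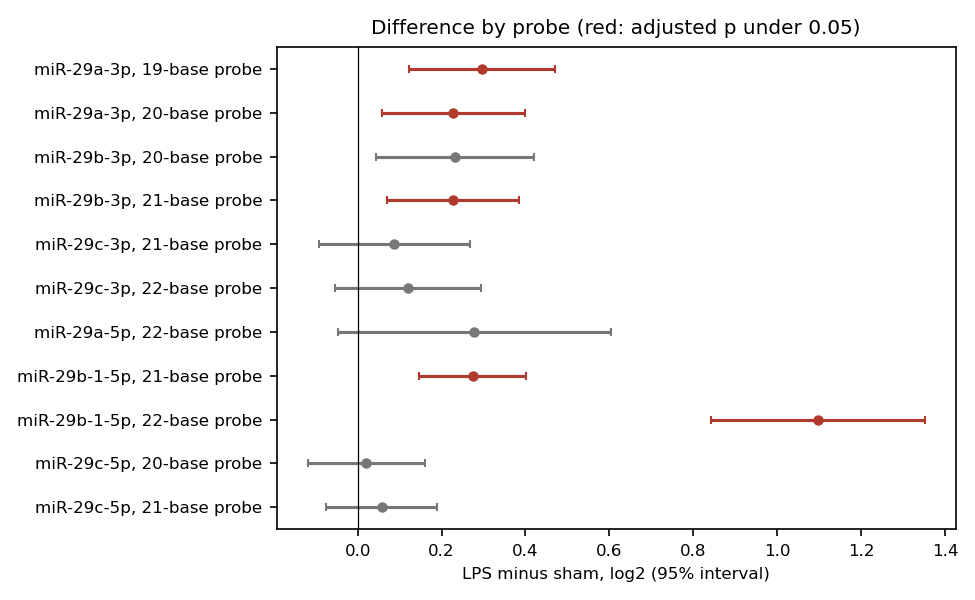
The LPS minus sham difference in log2 units is plotted for the 11 tested probes of the 6 arms, with 95% intervals from the fit and n = 4 arrays per group. Probes of an arm lie close together except for miR-29b-1-5p, where the 22-base probe is at 1.10 and the 21-base probe, with its sham arrays at the floor, is at 0.27.

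The guides are alike enough for probes to bind more than 1 of them. The probes of miR-29a-3p have 1 mismatch to miR-29c-3p, and the reverse holds for the probes of miR-29c-3p, whereas probes of miR-29b-3p have 4 to 5 mismatches to the other guides. These probes show the single base by which miR-29a-3p and miR-29c-3p differ, in capitals:
miR-29a-3p, 20-base probe: taaccgatttcaGatggtgc
miR-29c-3p, 21-base probe: taaccgatttcaAatggtgct
How much of either signal came from the other guide was not tested. Levels of different arms are not ranked here, since each probe has its own brightness.

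To compare arms without any array-wide factor, the log2 value of 1 arm was subtracted from that of another on the same array, and the LPS and sham values were compared by a 2-sided exact permutation test over 6 pairs. With 4 against 4 arrays no p can be below 0.0286, and adjusted over 6 pairs none passed 0.05. The difference miR-29c-3p minus miR-29b-3p was -0.33, -0.21, -0.20 and -0.19 on the sham arrays and -0.37, -0.34, -0.36 and -0.36 on the LPS arrays. The groups did not overlap, and miR-29c-3p fell behind miR-29b-3p by 0.12 ± 0.03 log2 units (SE, LPS minus sham -0.12, 95% interval -0.21 to -0.04, exact p = 0.0286, adjusted p = 0.0857). Against miR-29a-3p the shift of miR-29c-3p was -0.15 (95% interval -0.26 to -0.03), with overlapping groups (exact p = 0.0857, adjusted p = 0.171).

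The other pairs contrast the called guides and the 2 arms of each hairpin. Between miR-29b-3p and miR-29a-3p the shift was -0.02 (95% interval -0.09 to 0.05, exact p = 0.514), a small difference with a narrow interval. For miR-29b-1-5p against its own guide no size is read, because the sham side was below background: the computed shift was 0.94 (adjusted p = 0.0857). With another background correction (normexp, which models the background and here adds an offset of 50), it was -0.12. The passenger arms miR-29a-5p and miR-29c-5p shifted by 0.16 (95% interval -0.15 to 0.46, exact p = 0.229) and -0.06 (-0.18 to 0.05, exact p = 0.286) against their guides, with overlapping groups.

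**Figure D3:**
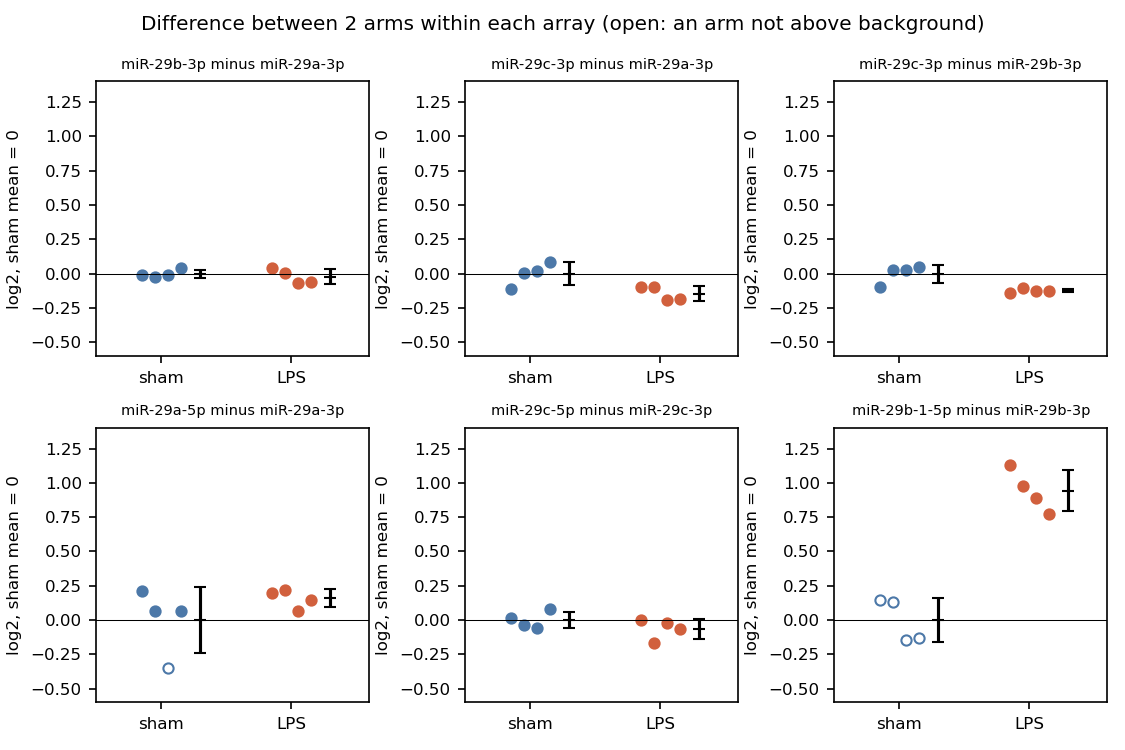
For each of the 6 pairs, the within-array difference between the arms in log2 units is plotted per array with the sham mean set to 0, and the mean and SD of 4 arrays per group are shown as bars. The groups separate for miR-29c-3p minus miR-29b-3p, shifted by -0.12, and for miR-29b-1-5p minus miR-29b-3p, where open points mark sham arrays on which miR-29b-1-5p was not above background.

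How the arrays are scaled to each other bears on the small differences of the guides. The labelling spike-ins, RNAs added in the labelling kit, were brighter in LPS with no overlap between the groups, dmr_285 by 0.34 and dmr_31a by 0.10 log2 units before scaling (2-sided exact permutation p = 0.0286 for each). With scaling to the mean log2 signal of both spike-ins, the median difference of all 338 miRNAs moved from -0.08 to -0.23. Scaling to either spike-in alone was not tested. The differences then were 0.10 for miR-29a-3p (adjusted p = 0.260), 0.08 for miR-29b-3p (0.386), -0.04 for miR-29c-3p, 0.26 for miR-29a-5p (0.0653), 1.03 for miR-29b-1-5p (7.59e-04) and -0.10 for miR-29c-5p. So of the called arms only miR-29b-1-5p kept its call, and both miR-29c arms turned to below 0. The kept call is no independent support, since miR-29b-1-5p was tested only through the LPS arrays.

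The differences can also be read relative to the median of all tested miRNAs. A scaling with 1 factor per array, as in 4 of the 6 used, cannot change such a value by its construction, so only quantile normalization and cyclic loess could move it. Over the 6 scalings miR-29a-3p lay 0.23 to 0.33 log2 units above that median, miR-29b-3p 0.28 to 0.33, miR-29c-3p 0.14 to 0.21, miR-29a-5p 0.49 to 0.59 and miR-29c-5p 0.06 to 0.12. Without that reference, miR-29a-3p was called in 4 of the 6, miR-29b-3p in 5, miR-29a-5p in 5 and miR-29b-1-5p in 6. Both of these passenger arms were tested only through the LPS arrays, so their counts add no independent support. The share of all calls that were higher was 36.8% in the main scaling, 18.0% with spike-ins, 41.1% with quantile normalization, 37.0% with cyclic loess, 50.9% with the percentile over all probes and 53.8% with no scaling.

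The faint passenger arms also moved with the background correction and the summary over probes, besides the scaling. For miR-29a-5p the difference was -0.000427 with normexp and an offset of 50 (adjusted p = 0.994), and 0.07 with an offset of 10 (0.323) or with the mean of log values over probes (0.285). For miR-29b-1-5p the offset of 50 gave 0.12 (adjusted p = 0.0669) and the offset of 10 gave 0.30 (0.00863). An added offset shrinks log2 differences of faint probes by its construction. The normexp settings also replaced the background subtraction, and the part of each was not tested. With the same offset of 50 the guides, whose probes are far brighter, differed by 0.25 for miR-29a-3p and 0.23 for miR-29b-3p.

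**Figure D4:**
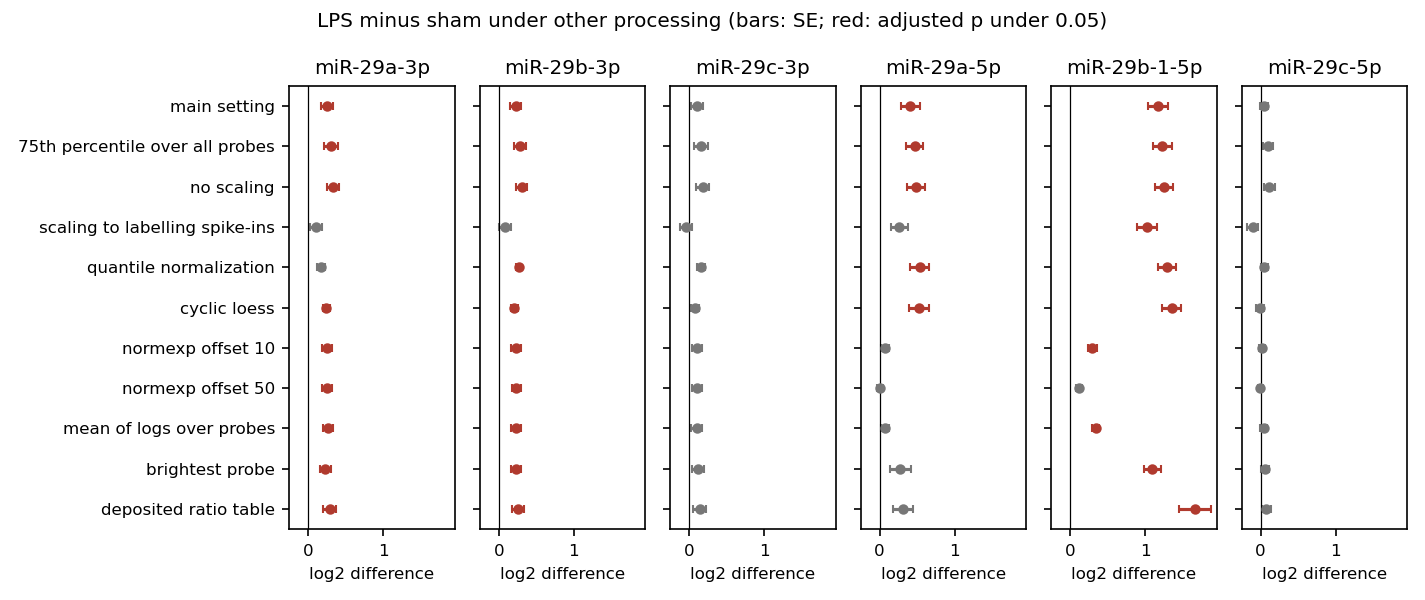
The LPS minus sham difference of each arm is plotted in log2 units with its SE under the main setting and 10 alternatives, with n = 4 arrays per group. The guides move with the scaling, lowest with the spike-ins for miR-29a-3p at 0.10 and miR-29b-3p at 0.08, and miR-29a-5p and miR-29b-1-5p shrink most with normexp at an offset of 50, to -0.000427 and 0.12.

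Among the 306 miRNAs detected on all 8 arrays, ordered by their LPS minus sham difference from the highest, miR-29a-3p stood at rank 47, miR-29b-3p at 49, miR-29c-3p at 70 and miR-29c-5p at 92. The other 2 arms have no rank here, since not all sham arrays detected them. The order of the arms was not itself tested.

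**Figure D5:**
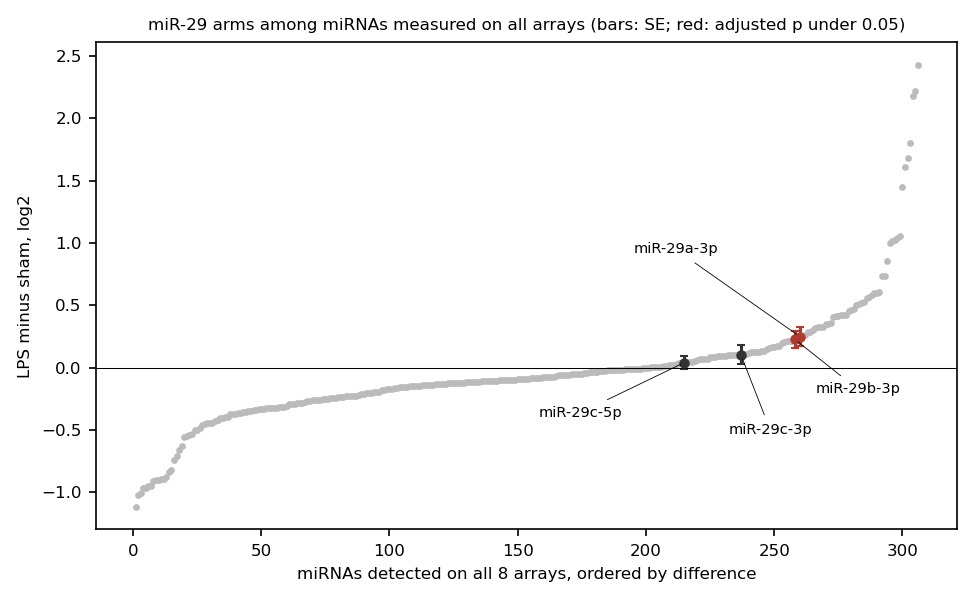
The LPS minus sham difference in log2 units of the 306 miRNAs detected on all 8 arrays is plotted in ascending order as grey points, with the 4 arms of the family among them and their SE on top. The 4 arms lie between 0.04 and 0.25, and miRNAs with larger differences lie to their right.

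The guides were positively correlated over the arrays. The log2 values of miR-29a-3p and miR-29b-3p correlated at r = 0.970 over the 8 arrays, and at 0.911 once each group's mean was removed. For miR-29b-3p and miR-29c-3p the values were 0.855 and 0.896, for miR-29a-3p and miR-29c-3p 0.797 and 0.786, and for miR-29c-3p and its passenger arm 0.837 and 0.812. Between miR-29a-3p and its passenger arm r was 0.801, and 0.482 within groups. These are descriptions over 8 arrays that share a slide and a scaling factor per array, and the probes of miR-29a-3p and miR-29c-3p are 1 base from each other's target.

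The mean of the 3 guides, taken as the family's profile, was compared with the other 332 tested miRNAs. Over the 8 arrays the most similar were miR-362-3p (r = 0.938), miR-19a-3p (0.928), miR-19b-3p (0.907), miR-20b-5p (0.904) and miR-20a-5p (0.881). Of these 5, miR-19a-3p, miR-19b-3p, miR-20b-5p and miR-20a-5p were called higher, by 0.42, 0.52, 0.46 and 0.59 log2 units (adjusted p = 0.00634, 0.00262, 0.00187 and 4.70e-04). miR-362-3p differed by 0.18 and was not called (0.102). Over all tested miRNAs 14.8% were called higher. The profile was itself higher in LPS on average, so likeness over the 8 arrays favours miRNAs that are higher in LPS. These calls therefore add no support. With group means removed, the most similar were miR-3962 (r = 0.943), miR-27b-3p (0.912), miR-20a-5p (0.885), miR-362-3p (0.881) and miR-30a-5p (0.876), so miR-20a-5p and miR-362-3p appear by both measures.

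Other miRNAs linked to kidney fibrosis were called about as often as miRNAs in general. Of 28 listed, all on the array, 24 were tested, and 3 were called higher and 6 lower, near the 14.8% and 25.4% of all tested miRNAs. Their median difference was -0.03. Of the 8 tested that are described as pro-fibrotic or induced in fibrotic kidney, miR-21a-5p rose by 2.22 ± 0.08 (SE, log2, adjusted p = 1.95e-07), miR-155-5p by 1.68 ± 0.08 and miR-132-3p by 1.39 ± 0.12. In the same group miR-192-5p fell by 0.28 and miR-199a-5p fell by 0.25. Since miR-132-3p was detected on 2 of 4 sham arrays, it was tested only through the LPS arrays, and its call and size are no independent support. Where all 8 arrays had to detect a miRNA, 2 of the whole list were called higher. Of the 16 tested that are described as anti-fibrotic, 0 were called higher and 4 lower, the latter close to the 25.4% of all tested miRNAs: miR-30e-5p fell by 0.29 (adjusted p = 0.0124), miR-30c-5p by 0.26 (0.0134), miR-204-5p by 0.19 (0.0378) and miR-429-3p by 0.16 (0.0421). The medians were 0.10 for the first and -0.07 for the second group, beside -0.08 over all tested miRNAs. The number of lower calls in the whole list was 1 with the percentile over all probes, 0 with no scaling, 11 with spike-ins, 10 with quantile normalization and 2 with slide column as a block. It was 2 or 3 without any single array other than LPS replicate 10.

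Some markers of cell types were called between the groups, against 14.8% of all tested miRNAs called higher and 25.4% lower, and their part in the miR-29 differences was not tested. Of 6 leukocyte markers, all tested, 2 were called higher: miR-155-5p and the myeloid miRNA miR-223-3p, by 0.86 ± 0.09 (SE, adjusted p = 3.03e-04). The others were not called and went both ways: miR-142a-3p differed by 0.26, miR-142a-5p by 0.13, miR-342-3p by -0.01 and miR-150-5p by -0.22. The log2 of the summed leukocyte markers ran from 1.18 to 1.64 in sham and from 1.79 to 1.89 in LPS. Both tested red cell markers, of 3 listed, were called higher, miR-451a by 2.43 ± 0.71 and miR-144-3p by 2.46 ± 0.68 (SE, adjusted p = 0.0285 and 0.0235), with summed levels of -0.86 to 1.66 and 1.04 to 3.79 that overlapped. Since miR-144-3p was detected on 2 of 4 sham arrays, it was tested only through the LPS arrays, and its call and size are no independent support. Of 5 tested tubule markers, 0 were higher and 3 lower: miR-194-5p differed by -0.33, miR-192-5p by -0.28 and miR-204-5p by -0.19. Not called were miR-10a-5p, at 0.10, and miR-30a-5p, at -0.11. Summed tubule levels were 5.90 to 6.02 in sham and 5.75 to 5.94 in LPS.

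Of 5 markers of smooth muscle and stroma, where matrix genes targeted by miR-29 are expressed, 0 were higher and 2 lower. These were miR-145a-5p, which fell by 0.44 ± 0.08 log2 units (SE, adjusted p = 0.00278), and miR-199a-5p, which fell by 0.25. The others were not called and went both ways: miR-199a-3p differed by 0.16, miR-143-3p by 0.05 and miR-214-3p by -0.12. The summed levels were 2.76 to 2.95 in sham and 2.84 to 3.002 in LPS. Neither of 2 endothelial markers was called, with summed levels of 4.13 to 4.24 and 4.10 to 4.27. Of 3 striated muscle markers 1 was tested and 0 were called, and the other 2 were not detected on any array.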

How the data were processed

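The authors deposited scanner output with 1 intensity per spot, background-subtracted with spatial detrending and not scaled between arrays, per the file headers. It was made with Agilent Feature Extraction (12.0.3.1), per the submitters' processing notes. A table deposited by the authors gives a linear ratio per miRNA and array, which lay within 0.01 log2 of the scanner software's total for 100% of the values of 383 miRNAs after 1 factor per array and 1 per miRNA. What set the array factors stays unknown here. Its column medians, in the order of the text, were 0.995, 1.06, 1.05 and 0.980 (sham) and 0.958, 0.960, 1.01 and 1.03 (LPS). That table served as an alternative.

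Outlier spots were left out, spots averaged, arrays divided by the 75th percentile over 551 probes above background on all arrays, probes summed, values floored at -4.68 (probes -4.85) and log2-transformed. Groups came from the labels. The 2-sided comparison of LPS and sham used limma 3.58.1 (R 4.3.3; lmFit, then eBayes) without covariates and adjusted p-values by Benjamini-Hochberg over 338 miRNAs or 633 probes; the fit was tested on simulated data. Single arrays were left out of the fit with scaling and tested set kept. Named were the 6 arms and miR-29b-2-5p, up to 4 calls per direction of the fibrosis-linked list with the smallest p, the 5 miRNAs most like the guides by each correlation, and markers. miR-192-5p and miR-199a-5p are named as the listed pro-fibrotic miRNAs that were lower. The members and lists were chosen with earlier results of these data known.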

Additional observations from a re-analysis of the deposited data

Results flagged for a closer look

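The within-array difference miR-29c-3p minus miR-29b-3p of sham replicate 5 was -0.3285, apart from the other 3 sham arrays at -0.2063 to -0.1858. It was the only one of 24 sets of 4 arrays examined with such a gap, and chance gives about 1 in 20. Without that array the LPS minus sham shift was -0.16 in place of -0.12.

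The labelling spike-ins are outside the comparison, and both were brighter in LPS with no overlap between the groups. The differences before scaling were 0.3413 log2 units for dmr_285 and 0.1031 for dmr_31a.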

How the results depend on the processing

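No paired analysis was possible because the groups share only replicate number 6; the slide columns, each with 1 array of both groups, were used as a block below. Left out in turn, single arrays gave 85 to 152 calls (33 to 54 higher, 49 to 106 lower) and 3 to 4 higher and 2 to 6 lower calls in the fibrosis-linked list. The differences ran from 0.20 to 0.28 for miR-29a-3p, 0.18 to 0.27 for miR-29b-3p, 0.05 to 0.15 for miR-29c-3p, 0.30 to 0.48 for miR-29a-5p, 1.09 to 1.24 for miR-29b-1-5p and 0.01 to 0.07 for miR-29c-5p.

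With slide column as a block there were 80 calls, 45 of them lower, in place of 136 and 86, 2 lower in the fibrosis-linked list, and 0.25 for miR-29a-3p and 0.23 for miR-29b-3p were no longer called (adjusted p = 0.0636 and 0.0619). The lower calls numbered 53 with the percentile over all probes, 49 with no scaling, 155 with spike-ins and 53 with the deposited ratio table. In the fibrosis-linked list they were 1, 0, 11 and 1 in that order, and 10 with quantile normalization. Spike-in scaling gave 0.10 for miR-29a-3p, 0.082 for miR-29b-3p and 0.26 for miR-29a-5p, and quantile normalization 0.17 for miR-29a-3p (adjusted p = 0.0521), none called. The miR-29a-5p difference reversed to -0.000427 with normexp at offset 50 and was not called with offset 10 (0.071), the mean of logs (0.069), the brightest probe (0.28), outlier spots kept (0.37), the scanner software's total (0.23), the deposited ratio table (0.31) or a floor 1 log2 unit higher (0.014), which lies above most of its values. miR-29b-1-5p was not called with normexp at offset 50 (0.12). The normexp settings changed the background correction together with the offset, and the causes of these changes were not tested.

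Over the alternatives, the call of miR-29a-3p was lost in 7 of 27, that of miR-29b-3p in 9 of 27, that of miR-29a-5p in 13 of 26 besides the reversal, and that of miR-29b-1-5p in 1 of 26. The requirement of detection on all 8 arrays left no value for miR-29a-5p and miR-29b-1-5p. Neither miR-29c arm was called in any of 27, and values below 0 were -0.04 for miR-29c-3p and -0.10 for miR-29c-5p with spike-ins, and -0.01 with cyclic loess and -0.003 with normexp at offset 50 for miR-29c-5p. Signal near background limits miR-29a-5p and miR-29b-1-5p, and both were tested only through the LPS arrays.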
